A study of Homo sapiens with 8 samples.

Results

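The 48 genes described here encode the subunits, assembly chaperones, activators and inhibitor of the human proteasome. They were chosen by name, as the protein-coding entries called PSMA, PSMB, PSMC, PSMD, PSME, PSMF or PSMG with a number and an NM_ transcript, and make up 48 of the 62649 genes in the table. A total of 46 of them reached 1 TPM in 2 or more libraries and were tested, among 19122 genes that did. Their RNA was measured by RNA sequencing in AsPC-1 and PANC-1, established human pancreatic cancer cell lines that the labels give as wild type. The cells had been cultured for 3 days in methylcellulose medium, a viscous medium in which cells form spheroids. They were then exposed for 24 h to vehicle, to 10 µM roseoflavin, to 1 nM trametinib, or to both compounds. Roseoflavin is an antibiotic analogue of riboflavin, and trametinib blocks the MEK kinases of the MAPK pathway. Each of the 4 treatments was represented by 1 library in each line, so no group had replicates, and every error given with a difference comes from a model that treats the other terms as replication.

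The proteasome degrades proteins that carry ubiquitin chains. Its 20S core is a barrel of alpha and beta rings, with the proteolytic sites of PSMB5, PSMB6 and PSMB7 on the inside, and its 19S cap recognises, unfolds and feeds in the substrate. Cells exposed to interferon replace the proteolytic subunits with PSMB8, PSMB9 and PSMB10, which form the immunoproteasome, and the PSME1 and PSME2 activator ring can bind the core in place of the cap. When proteasome activity is short, the transcription factor NFE2L1 is known to raise the genes of the constitutive subunits together.

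Values are in TPM, which scales reads by gene length and then by the library total, so that levels of different genes can be compared. TPM holds no record of sequencing depth. Transcripts of the mitochondrial genome took 41.2% to 44.1% of the TPM in the AsPC-1 libraries and 22.8% to 25.6% in the PANC-1 libraries, so a nuclear gene at an equal share of nuclear RNA reads higher in PANC-1. The keratins KRT8, KRT18 and KRT19 of ductal epithelium were at 852 TPM or more in all 8 libraries. The epithelial marker EPCAM was at 1224 to 1485 TPM in AsPC-1 and at 14.5 to 16.8 TPM in PANC-1, and the mesenchymal marker VIM was at 660.3 to 816 TPM and 3132 to 3391 TPM. Of 8 markers of leukocytes, endothelium and fibroblasts, 6 did not exceed 0.083 TPM in any library, among them PTPRC and CD3E. The sum of the 8 markers was 106 to 149.9 TPM in AsPC-1 against 0.546 to 1.66 TPM in PANC-1, nearly all of it LUM in AsPC-1, at 103 to 146 TPM, and its part in the results was not tested.

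The proteasome genes ranged widely in level, from 2.09 TPM for PSMG4 to 1567 TPM for PSMC4 among the 46 tested. Together the 48 summed to 2413 to 2604 TPM in AsPC-1 against 5046 to 5221 TPM in PANC-1. PSMC4 alone accounted for much of that gap: without it the sums were 2376 to 2562 TPM and 3535 to 3653 TPM. Taken over non-mitochondrial TPM, the 48 genes made up 0.418% to 0.446% in AsPC-1 against 0.659% to 0.694% in PANC-1. These shares include PSMC4. The tissue-restricted forms were close to absent. PSMA8, the testis alpha subunit, was listed at 0 in 7 libraries and at 0.152 TPM in PANC-1 with trametinib. PSMB11, the beta subunit of the thymoproteasome, was listed at 0 in 7 libraries and at 0.060 TPM in PANC-1 with vehicle.

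**Figure D1:**
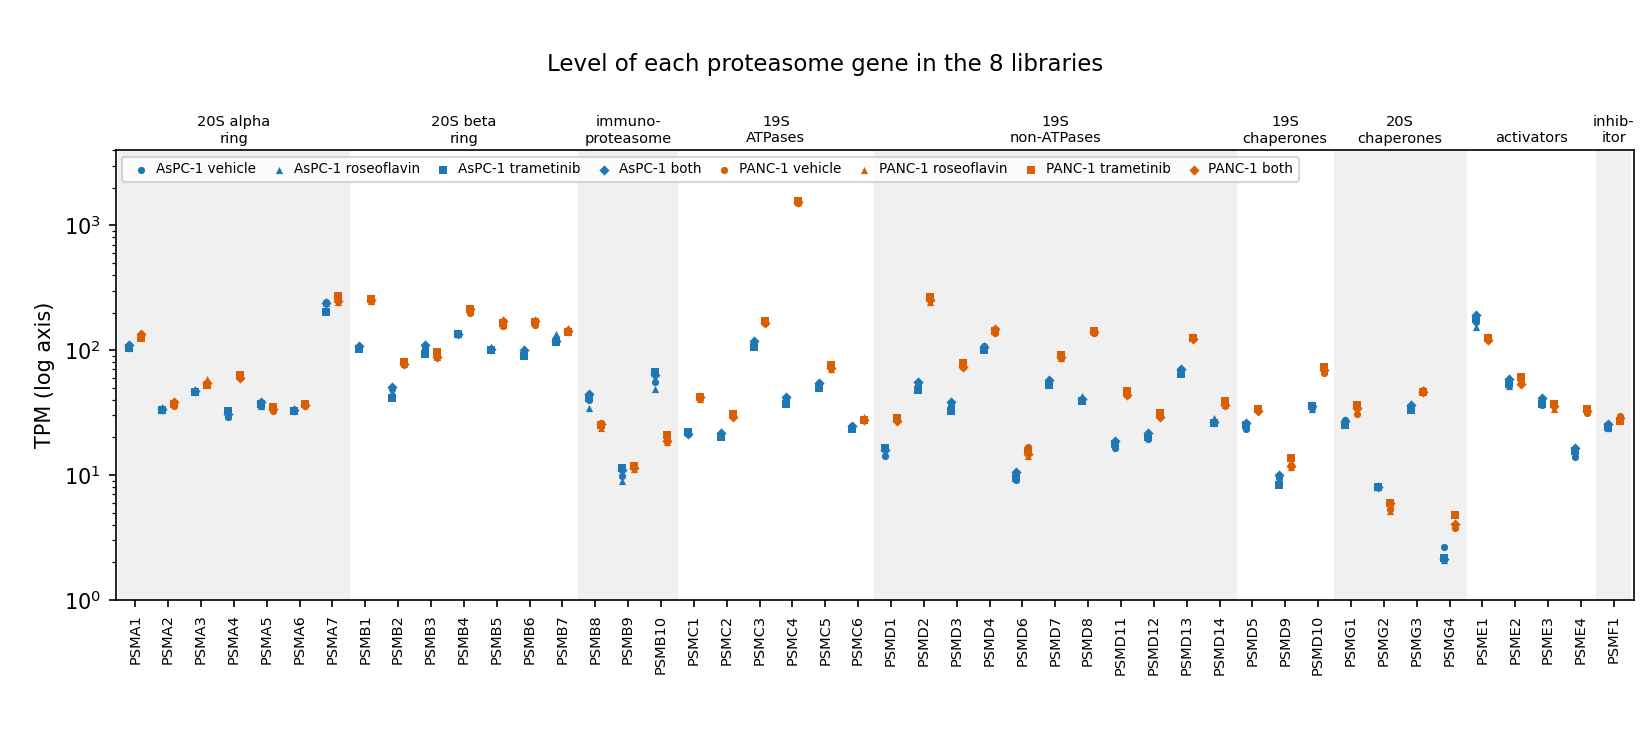
TPM (log axis) of the 46 proteasome genes that were tested, in each of the 8 libraries, with AsPC-1 in blue, PANC-1 in orange and 1 marker shape per treatment. Points of a line lie on top of each other for most genes, and PSMC4 in PANC-1, at 1511 to 1567 TPM, stands above every other value.

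The 4 libraries of a line lay close together for most members. The coefficient of variation over the 4 libraries of AsPC-1 had a median of 4.51% over the 46 members, from 0.732% for PSMG2 to 13.4% for PSMB10. Over all genes tested the median was 10.2%, and it was 6.58% over the 7907 genes that had an NM_ transcript and averaged 10 TPM or more. In PANC-1 the members had a median of 3.19%, from 1.27% for PSMD8 to 10.6% for PSMG4, against 7.23% over all genes and 4.50% over those 7907. These spreads include the effects of both compounds.

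The largest contrast in the set was between the lines. In a limma model with both compounds as additive terms, 42 of 46 members passed an adjusted p of 0.05, 37 of them higher and 5 lower in PANC-1. This has to be read against the background, since 83.8% of all genes tested passed, 62.3% higher and 21.5% lower in PANC-1. The median difference over the members was 0.46 on the log2(TPM + 1) scale, and that over all genes was 0.55, so the members as a whole did not lie above the general shift. Scaling moved this shift. With quantile normalization the median over all genes was 0.04, and 34 members passed, 18 higher and 16 lower. With mitochondrial transcripts removed it was 0.22, and 39 members passed, 22 higher and 17 lower. Under all 3 scalings 18 members were higher and 5 lower, beside 41.6% higher and 21.4% lower among all genes tested under each scaling, while 15 changed sign under at least 1 of them, and only differences that held under all 3 are called higher or lower below unless stated. In bulk RNA, fewer cells that express a gene and less RNA per cell cannot be told apart.

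**Figure D2:**
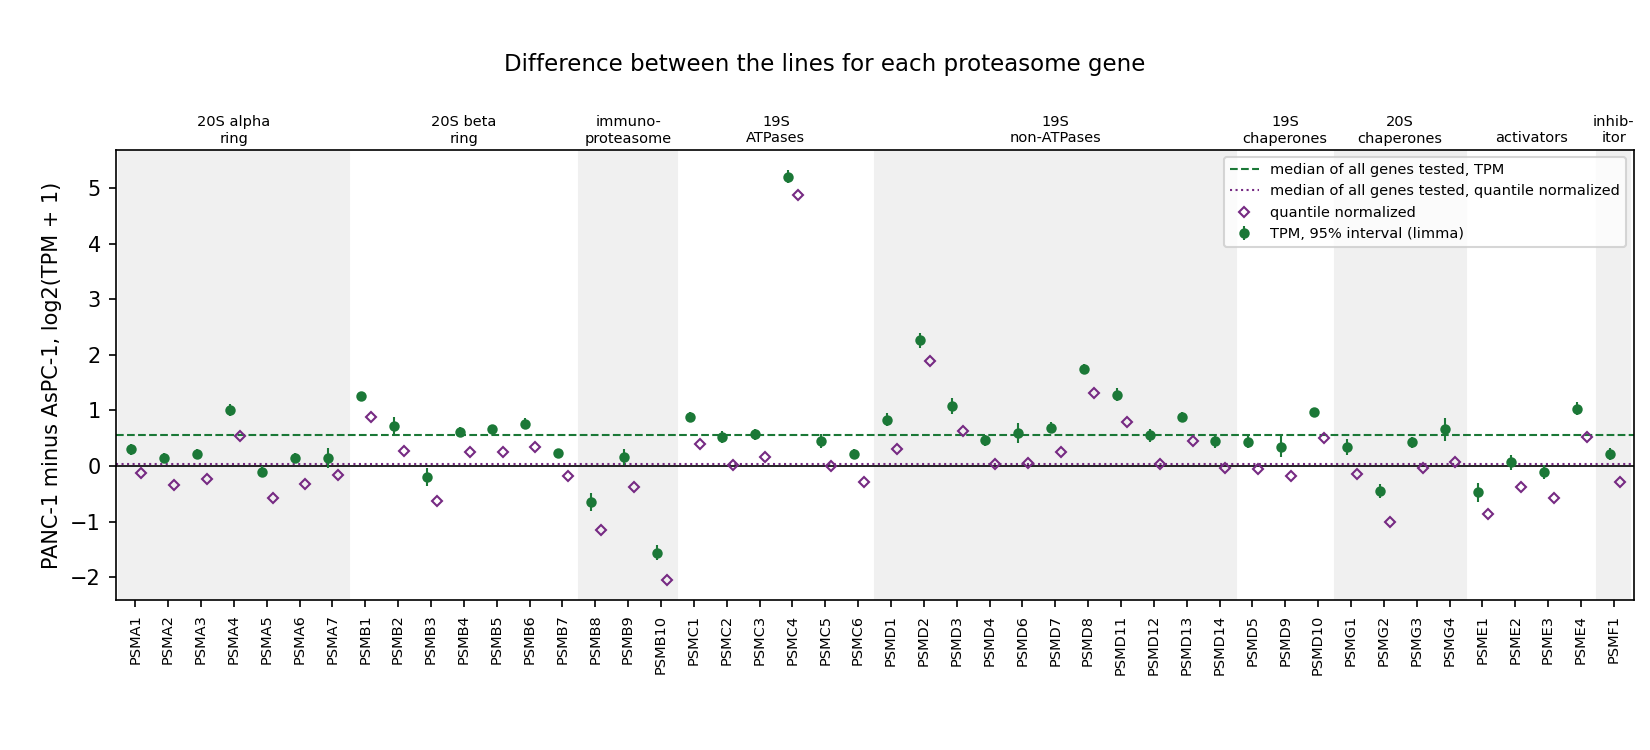
Difference between PANC-1 and AsPC-1 in log2(TPM + 1) for each member, by class, with the 95% interval from limma (green) and the value after quantile normalization (purple). The dashed and dotted lines are the medians over all genes tested, 0.55 and 0.04. PSMC4 at 5.21 and PSMB10 at -1.56 are the outermost members.

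The classes differed in where they lay relative to the shift of 0.55. Each count in this paragraph is to be set beside the shares among all genes. These were 62.3% passing as higher in TPM, and 41.6% higher and 21.4% lower under all 3 scalings. The 19S non-ATPases named PSMD, which hold ubiquitin receptors and the deubiquitinase of the cap, had a median of 0.83. All 11 of 11 passed as higher, and 7 of them were higher under all 3 scalings. Names keep ADRM1 and SEM1 outside this class, and they were at -0.06 and -1.29 in TPM. Of the 14 bound and shuttle genes that include them, 12 passed as higher. The constitutive beta ring had a median of 0.66, with 5 of 7 higher and PSMB3 lower under all 3. The 19S ATPases, the ring of motors that unfolds the substrate, had a median of 0.55 with 3 of 6 higher under all 3. The alpha ring, which gates the core, had a median of 0.15, and PSMA4 alone was higher under all 3 scalings. PSMA1, PSMA2 and PSMA6 of this ring each overlap a same-strand protein-coding locus with a higher TPM. Their levels, and so the median of the ring, are uncertain. After quantile normalization the medians of the cap non-ATPases and the beta ring were 0.31 and 0.26, and that of the alpha ring was -0.24. The activators had a median of -0.02 and the immunoproteasome a median of -0.66.

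PSMC4, an ATPase of the cap base also known as RPT3, had the largest difference of the set. It lies on chromosome 19, at chr19:39971005-39981441 on the plus strand (GRCh38, GENCODE release 29). It was at 40.6, 42.3, 37.0 and 42.3 TPM in AsPC-1 with vehicle, roseoflavin, trametinib and both, and at 1511, 1527, 1567 and 1527 TPM in PANC-1. All PANC-1 libraries lay far above all AsPC-1 libraries, at 37.8 times the mean, and no treatment moved the value of a line by a comparable amount. The difference was 5.21 on the log2(TPM + 1) scale (SE 0.0470, limma adjusted p = 2.14e-09), and it was 4.88 after quantile normalization and 4.83 with mitochondrial transcripts removed. Across all genes tested 129 had a larger rise from AsPC-1 to PANC-1, but among the 6968 genes that averaged 10 TPM or more in both lines only 3 did.

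The other 5 ATPases assemble with PSMC4 into 1 ring and did not share this difference. PSMC1, PSMC2, PSMC3, PSMC5 and PSMC6 differed by 0.21 to 0.89, and PSMC6 turned to -0.29 after quantile normalization. PSMC4 was 1.58 to 1.77 times the median of the other ATPases in the AsPC-1 libraries and 36.1 to 37.6 times in the PANC-1 libraries. Its share of all ATPase TPM was 14.9% ± 0.409 in AsPC-1 against 81.9% ± 0.110 in PANC-1 (SD over the 4 treatments, n = 4 each). This share is taken within a library, so that a single factor per library leaves it as it is. It is given as a description, with no test, since it was computed after the level of PSMC4 had been seen.

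Genes next to PSMC4 showed differences of like size. Within 500 kb of PSMC4, 22 other genes with an NM_ transcript were tested, with a median difference of 4.25 on the log2(TPM + 1) scale. Of these, 19 passed as higher in PANC-1, 2 as lower and 1 did not pass, beside 62.3% higher and 21.5% lower among all genes tested. A difference of more than 4 was seen in 12 of the 22. AKT2, a kinase of the insulin and survival pathway at 259 kb between lower coordinates, was at a mean of 9.74 TPM in AsPC-1 against 428 TPM in PANC-1. FBL, a nucleolar methyltransferase on the other side at -136.5 kb, was at 105 and 2888 TPM, and DYRK1B, a kinase at -145.7 kb, at 10.97 and 426 TPM. FCGBP, a mucus protein gene that lies between FBL and PSMC4, went the other way, at 12.8 and 3.88 TPM. Past AKT2 the differences were smaller, with 1.81 for C19orf47, 0.85 for PLD3, 0.12 for SERTAD1 and -1.06 for BLVRB. On the other side PAF1, an elongation factor subunit at -585.2 kb, was at 39.2 and 1342 TPM. As background, amplification of the chromosome segment that holds AKT2 has been described in PANC-1. DNA copy number was not measured here, and its part was not tested.

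**Figure D3:**
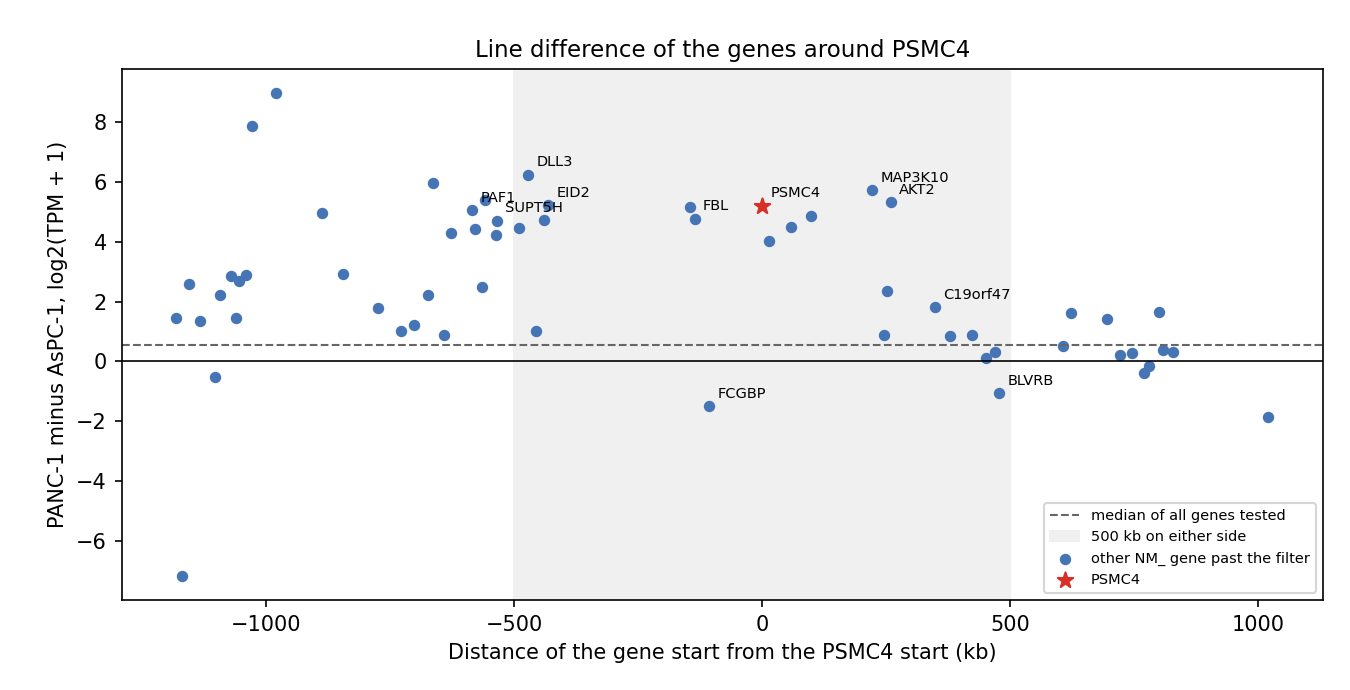
Difference between PANC-1 and AsPC-1 in log2(TPM + 1) for genes around PSMC4, by distance from its start in kb. Shading covers 500 kb on either side, where the median of the 22 other genes is 4.25, and the dashed line is the median of all genes tested, 0.55.

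The next members in order were cap subunits and 1 core subunit. PSMD2, the scaffold RPN1 that binds ubiquitin and shuttle factors, was at 53.5, 52.3, 47.9 and 55.8 TPM in AsPC-1 with vehicle, roseoflavin, trametinib and both, and at 257, 244, 267 and 250.5 TPM in PANC-1. Its difference was 2.26 (SE 0.0588, limma adjusted p = 1.15e-07), and the lines did not overlap. PSMD8, a structural subunit of the lid, was at 40.0, 43.1, 39.1 and 40.7 TPM and at 137, 139, 142 and 139 TPM in the same order, a difference of 1.75 (SE 0.0378). PSMD11, a lid scaffold, was at 16.5, 19.1, 17.6 and 18.6 TPM and at 45.2, 44.8, 46.7 and 44.1 TPM, a difference of 1.29 (SE 0.0514). PSMB1, a core subunit without a proteolytic site, was at 105, 105, 102 and 109 TPM and at 247, 249, 258 and 253 TPM, a difference of 1.25 (SE 0.0338). In each of these genes every PANC-1 library was above every AsPC-1 library. The differences after quantile normalization were 1.88, 1.32, 0.79 and 0.89.

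Neighbours of these 4 members had median differences above that of 0.55 over all genes tested. PSMD2 had 18 tested neighbours within 500 kb with a median difference of 1.46, and EIF4G1, a translation initiation factor 15.8 kb away, was at a mean of 83.98 TPM in AsPC-1 against 337 TPM in PANC-1. PSMD8 had 22 neighbours with a median of 1.38, PSMD11 had 9 with a median of 1.07, and PSMB1 had 4 with a median of 1.81. Members with somewhat smaller differences varied. For PSMD3 (1.08) and PSME4 (1.03) the neighbour medians were 0.13 and 0.46, and for PSMA4 (1.00) and PSMD10 (0.96) they were 0.90 and 1.96. Across the 42 members with at least 5 neighbours, the difference of the member and the median of its neighbours had a Pearson r of 0.668 and a Spearman rho of 0.367, and r was 0.304 over 41 members without PSMC4. These are descriptions over genes that share the same 8 libraries.

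The constitutive proteolytic subunits of the core were all abundant. PSMB5, the chymotrypsin-like site, was at 99.7, 106, 100.4 and 103 TPM in AsPC-1 with vehicle, roseoflavin, trametinib and both, and at 156, 159, 164 and 169.7 TPM in PANC-1. PSMB6, the caspase-like site, was at 97.2, 101, 90.5 and 100.1 TPM and at 160.0, 164, 167 and 169.96 TPM. PSMB7, the trypsin-like site, was at 126, 134, 115 and 119 TPM and at 146, 151, 139 and 144 TPM. The lines did not overlap for any of the 3, with differences of 0.66, 0.76 and 0.23. For PSMB7 the sign turned with the scaling, to -0.17 after quantile normalization and -0.16 with mitochondrial transcripts removed.

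The ubiquitin receptor PSMD4 and the deubiquitinase PSMD14 of the cap were more even between the lines than PSMD2. PSMD4, the receptor RPN10, was at 107, 102, 99.7 and 105 TPM in AsPC-1 and at 137, 145, 144 and 146 TPM in PANC-1 in the same order, a difference of 0.46 that was 0.04 after quantile normalization (limma adjusted p = 0.265). PSMD14, the deubiquitinase RPN11, was at 26.3, 28.8, 25.9 and 26.6 TPM and at 36.4, 36.2, 39.2 and 36.6 TPM. Its difference was 0.45, and -0.03 after quantile normalization (limma adjusted p = 0.611). Neither gene's lines overlapped in TPM.

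PSMB8 and PSMB10 of the immunoproteasome were lower in PANC-1. PSMB8, the inducible counterpart of PSMB5, was at 40.2, 34.7, 41.6 and 44.6 TPM in AsPC-1 with vehicle, roseoflavin, trametinib and both, and at 25.9, 23.8, 25.0 and 25.7 TPM in PANC-1. Its difference was -0.66 (SE 0.0667, limma adjusted p = 8.97e-05). PSMB10, the counterpart of PSMB7, was at 55.8, 49.2, 66.6 and 63.8 TPM and at 18.7, 18.4, 21.0 and 18.8 TPM, and the difference was -1.56 (SE 0.0587, limma adjusted p = 5.97e-07). Every AsPC-1 library lay above every PANC-1 library in both genes. PSMB9, the counterpart of PSMB6, was at 9.89, 8.90, 11.3 and 10.9 TPM and at 11.8, 11.2, 11.8 and 11.3 TPM, and here the lines overlapped. Its difference of 0.16 passed narrowly (limma adjusted p = 0.0417) and became -0.37 and -0.21 with the other scalings. It no longer passed when any library but the AsPC-1 library with both compounds or the PANC-1 library with trametinib was left out, with limma adjusted p of 0.0503 to 0.127.

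Within a library, the inducible subunits made up a larger part of each proteolytic pair in AsPC-1. PSMB8 was 28.2% ± 2.47 of the summed TPM of PSMB8 and PSMB5 in AsPC-1 against 13.4% ± 0.572 in PANC-1 (SD over treatments, n = 4 each). PSMB10 was 32.2% ± 4.39 and 11.7% ± 0.964 of its pair with PSMB7, and PSMB9 was 9.59% ± 1.26 and 6.52% ± 0.260 of its pair with PSMB6. None of the 3 shares overlapped between the lines. They were computed after the levels had been seen and are given with no test. The shares are of RNA, and protein in assembled particles was not measured.

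**Figure D4:**
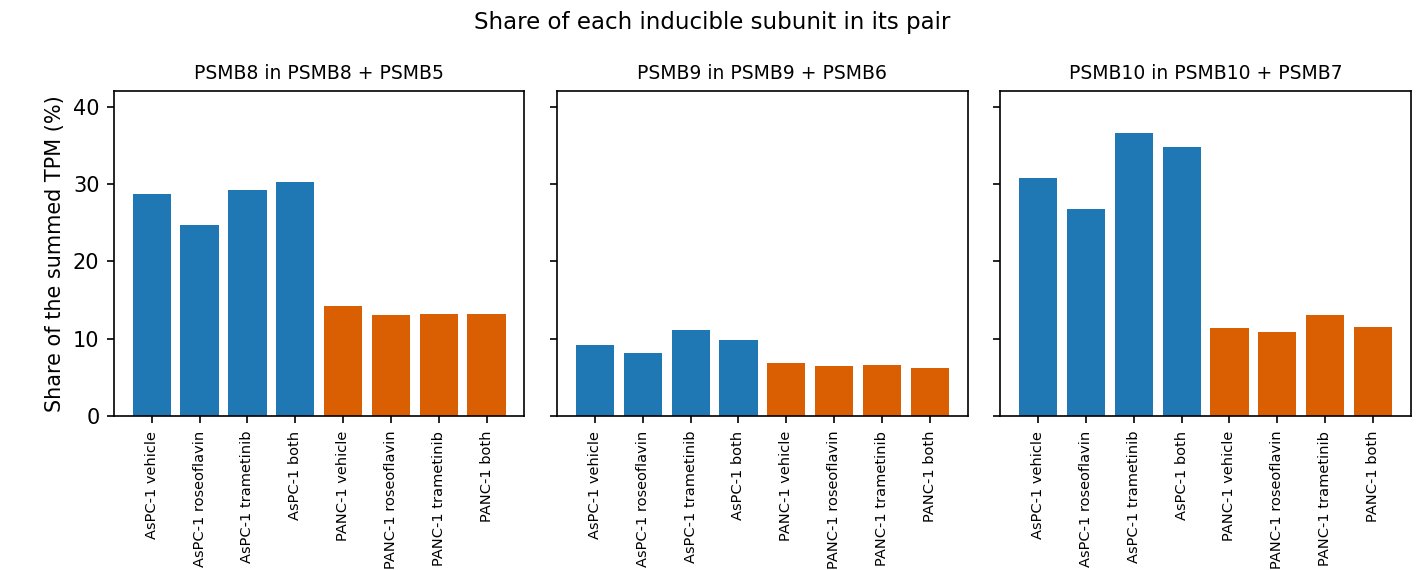
Share of each inducible proteolytic subunit in the summed TPM of its pair, in percent, with 1 bar per library, AsPC-1 in blue and PANC-1 in orange. Every AsPC-1 bar is above every PANC-1 bar in the 3 panels, and within AsPC-1 both libraries with trametinib are above both without it.

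The genes of peptide supply and interferon signalling that accompany the immunoproteasome did not follow PSMB8 and PSMB10. Of 7 such genes 4 were higher in PANC-1 and 1 was lower under all 3 scalings, against 41.6% and 21.4% of all genes. TAP1 and TAP2, which form the peptide transporter of the endoplasmic reticulum, were at 15.5 to 17.5 and 5.51 to 6.39 TPM in AsPC-1 and at 38.1 to 41.7 and 22.2 to 25.4 TPM in PANC-1, differences of 1.23 and 1.88. TAPBP, the peptide-loading chaperone tapasin, differed by 1.34. NLRC5, an activator of class I antigen presentation genes, was lower, at 2.08 to 2.64 TPM in AsPC-1 against 0.872 to 1.45 TPM in PANC-1, a difference of -0.69 (SE 0.0978). TAP1 and PSMB9 lie head to head on chromosome 6, and the bodies of PSMB8, PSMB9, TAP1 and PSMB8-AS1 overlap in the annotation, so reads could be shared between them if strand was not used in counting, which is not given in the sources used here.

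The start regions of these genes are shown for the members of the immunoproteasome and the interferon-inducible activator that are lower or uneven between the lines, and for TAP1, which shares its start region with PSMB9. Each is a RefSeq window of GRCh38.p14 from 250 bases before to 50 bases after the start, 5′ to 3′ on the strand of the gene, and capitals mark each match to the core of the interferon-stimulated response element, which is GAAA, any 2 bases and GAAA, on either strand.
PSMB8, chr6:32843998-32844297, minus strand: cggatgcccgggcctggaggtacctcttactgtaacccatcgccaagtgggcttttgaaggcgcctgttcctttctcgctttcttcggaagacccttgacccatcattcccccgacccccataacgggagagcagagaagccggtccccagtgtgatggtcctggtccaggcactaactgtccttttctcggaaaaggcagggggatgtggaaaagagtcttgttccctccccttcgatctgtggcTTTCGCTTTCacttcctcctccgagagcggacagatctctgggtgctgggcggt
PSMB9, chr6:32853942-32854241, plus strand: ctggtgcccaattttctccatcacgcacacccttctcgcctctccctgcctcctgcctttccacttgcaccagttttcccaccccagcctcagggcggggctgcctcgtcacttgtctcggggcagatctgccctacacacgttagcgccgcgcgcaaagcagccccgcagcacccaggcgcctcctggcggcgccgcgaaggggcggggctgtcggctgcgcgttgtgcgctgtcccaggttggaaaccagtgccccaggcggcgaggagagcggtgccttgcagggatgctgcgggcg
PSMB10, chr16:67936801-67937100, minus strand: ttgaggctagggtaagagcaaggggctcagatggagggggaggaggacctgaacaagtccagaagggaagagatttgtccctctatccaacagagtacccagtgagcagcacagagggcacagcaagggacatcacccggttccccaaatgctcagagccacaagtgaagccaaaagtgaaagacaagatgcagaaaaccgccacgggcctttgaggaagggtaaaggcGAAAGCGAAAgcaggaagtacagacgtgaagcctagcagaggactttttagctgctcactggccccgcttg
PSME1, chr14:24135944-24136243, plus strand: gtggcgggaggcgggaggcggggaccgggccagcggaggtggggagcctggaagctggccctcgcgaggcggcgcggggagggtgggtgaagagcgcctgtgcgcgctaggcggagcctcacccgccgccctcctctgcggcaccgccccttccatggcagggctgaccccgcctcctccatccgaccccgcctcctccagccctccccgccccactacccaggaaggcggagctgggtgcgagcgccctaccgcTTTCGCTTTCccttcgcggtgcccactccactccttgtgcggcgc
PSME2, chr14:24146561-24146860, minus strand: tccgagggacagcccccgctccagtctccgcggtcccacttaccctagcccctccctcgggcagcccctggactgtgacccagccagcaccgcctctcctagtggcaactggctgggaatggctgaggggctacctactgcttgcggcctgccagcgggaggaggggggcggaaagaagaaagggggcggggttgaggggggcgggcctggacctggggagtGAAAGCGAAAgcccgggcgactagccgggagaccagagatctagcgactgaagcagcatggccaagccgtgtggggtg
TAP1, chr6:32853655-32853954, minus strand: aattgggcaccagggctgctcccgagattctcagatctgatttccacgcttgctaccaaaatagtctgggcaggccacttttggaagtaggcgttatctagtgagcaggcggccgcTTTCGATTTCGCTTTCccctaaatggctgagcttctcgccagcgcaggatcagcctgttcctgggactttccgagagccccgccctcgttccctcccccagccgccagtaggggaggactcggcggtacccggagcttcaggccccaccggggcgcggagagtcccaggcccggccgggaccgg

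A match to this core, searched on both strands, was present in 3.57% of all 35116 RefSeq start windows and in 7 of the 49 windows (14.3%) of the 40 members found there. PSMA7, PSMB1, PSMB6, PSMB7, PSMD4 and PSMG3 were not matched to a window. The 7 members with a match were PSMA4, PSMB4, PSMB8, PSMB10, PSME1, PSME2 and PSMG4. In PSMB8, PSMB10, PSME1 and PSME2 the matched letters were the same, GAAAGCGAAA or its reverse complement. That run, looked for after the sequences had been seen, was in 35 of the 35116 windows (0.0997%) and in those of 5 members, the fifth being PSMG4. PSMB8 and TAP1 each have a further window, at chr6:32844630-32844929 and chr6:32852712-32853011 on the minus strand, not printed, and neither held a match. The PSMB9 window held no match, while the TAP1 window that overlaps it held a pair of overlapping matches. Of the 7 members with a match, PSMB8, PSMB10 and PSME1 were lower in PANC-1 and PSMA4 and PSMB4 were higher under all 3 scalings. A match is a description of letters and no evidence of binding.

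The activators split in a similar way. PSME1, the alpha subunit of the interferon-inducible ring, was at 167, 153, 179 and 192 TPM in AsPC-1 with vehicle, roseoflavin, trametinib and both, and at 121, 129, 124 and 120.1 TPM in PANC-1. Every AsPC-1 library was above every PANC-1 library, with a difference of -0.48 (SE 0.0680, limma adjusted p = 0.000545). PSME2, the beta subunit of the same ring, was at 53.6, 51.9, 53.5 and 58.7 TPM and at 56.8, 56.7, 60.4 and 53.8 TPM, and the lines overlapped. Its difference was 0.06 with a limma adjusted p of 0.302, and it was -0.39 after quantile normalization and -0.32 with mitochondrial transcripts removed. The ratio of PSME1 to PSME2 was 3.17 ± 0.177 in AsPC-1 against 2.17 ± 0.096 in PANC-1 (SD, n = 4 each), with no test. PSME3, the nuclear activator, was at 36.3, 38.4, 37.1 and 41.7 TPM and at 35.9, 33.6, 37.0 and 35.5 TPM and did not pass (difference -0.11, limma adjusted p = 0.0896). It passed as lower without the AsPC-1 library with trametinib alone, at -0.14 (limma adjusted p = 0.0437), and was at -0.58 and -0.49 under the other scalings. PSME4, the activator PA200 of chromatin and spermatogenesis, was at 13.8, 15.9, 15.7 and 16.5 TPM and at 31.4, 32.7, 33.8 and 32.4 TPM. It was the only activator that was higher in PANC-1 under all 3 scalings, with a difference of 1.03 (SE 0.0487).

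Among the inhibitor and the assembly factors, PSMD10 alone was higher and PSMG2 alone was lower in PANC-1 under all 3 scalings. In TPM the 19S and 20S assembly chaperones had median differences of 0.44 and 0.39. PSMF1, the inhibitor PI31, was at 23.8, 23.8, 24.2 and 25.6 TPM in AsPC-1 and at 29.6, 28.6, 27.3 and 28.7 TPM in PANC-1 in the same order of treatments. Its difference of 0.22 turned to -0.28 after quantile normalization and -0.16 with mitochondrial transcripts removed. PSMG2, a chaperone that pairs with PSMG1 to build the alpha ring, was at 8.13, 8.08, 8.002 and 8.02 TPM and at 5.32, 5.19, 5.96 and 5.998 TPM, a difference of -0.46 (SE 0.0532, limma adjusted p = 0.000188). The difference of PSMG2 was -1.01 after quantile normalization and -0.83 with mitochondrial transcripts removed. Its partner PSMG1 differed by 0.35 in TPM and by -0.14 after quantile normalization. PSMG4, the lowest of the tested members in level, differed by 0.66 in TPM and by 0.08 after quantile normalization. PSMD10, the chaperone gankyrin, which escorts PSMC4 into the cap base, was higher by 0.96 (SE 0.0339), and was the only 19S chaperone that was higher under all 3 scalings. PSMB3, a core subunit without a proteolytic site, was at 104, 108, 93.4 and 110.0 TPM and at 87.4, 87.9, 96.9 and 87.9 TPM, and the lines overlapped. Its difference was -0.20 (limma adjusted p = 0.0255), and the adjusted p was 0.0706 to 0.0806 when any library except those with trametinib alone was left out.

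Of the ubiquitin, shuttle and NFE2L1-route genes, UBQLN2, UBA1, NPLOC4 and NFE2L1 were the highest relative to AsPC-1. Among 14 bound and shuttle proteins, 12 passed as higher and 1 as lower in TPM, and 6 and 1 did under all 3 scalings. The shares among all genes, to be set beside each count in this paragraph, were 62.3% higher and 21.5% lower in TPM and 41.6% and 21.4% under all 3 scalings. UBQLN2, a shuttle factor, was at 7.99 to 9.95 TPM in AsPC-1 and at 38.8 to 42.4 TPM in PANC-1, a difference of 2.05. SEM1, the smallest lid subunit, which its name keeps outside the rule, was the lower one, at 67.0 to 74.4 TPM and 27.1 to 28.96 TPM, a difference of -1.29 (SE 0.0475). Among 10 genes of the NFE2L1 route, 8 passed as higher and 1 as lower, and 6 and 1 did under all 3 scalings. NFE2L1 itself was at 90.3 to 92.3 TPM and 278 to 303 TPM, a difference of 1.66 (SE 0.0374), and NPLOC4, a cofactor of the VCP segregase, differed by 1.80. MAFF, a small partner protein of such factors, was lower by 0.80 on the log2 scale. Of 6 ubiquitin and E1 genes, 4 passed as higher and 1 as lower, but UBA1, the main ubiquitin-activating enzyme, was the only one higher under all 3 scalings, at a difference of 1.71.

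Roseoflavin did not move the proteasome genes by an amount the design could call. Over both lines 0 of 46 members passed in limma, 0 had an unadjusted p under 0.05, and 0% of all genes tested passed, with 1358 genes at an unadjusted p under 0.05. The member with the smallest p was PSMB7, with a change of 0.06 (SE 0.0331, limma adjusted p = 0.754). The median over members was 0.02 against -0.02 over all genes. All 46 of the 95% intervals lay within 0.5 on the log2(TPM + 1) scale, from -0.30 for PSMG4 to 0.22 for PSMD9. For PSMB5 the interval was -0.04 to 0.13, for PSMB6 -0.04 to 0.16 and for PSMB7 -0.02 to 0.14.

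Taken per line, roseoflavin again gave 0 of 46 members past the threshold. In AsPC-1 0% of all genes passed in limma, 1831 had an unadjusted p under 0.05, and of the members PSME3 alone did, with a change of 0.12 (SE 0.0462, limma adjusted p = 0.509). In PANC-1 0% of all genes passed, 1811 had an unadjusted p under 0.05, and none of the members did. The smallest p there was for PSMD6, a lid subunit at 16.9 and 15.7 TPM without roseoflavin and at 14.2 and 14.8 TPM with it, a change of -0.16 (SE 0.0640, limma adjusted p = 0.542). In AsPC-1 PSMD6 was at 9.19 and 9.48 TPM without and at 10.2 and 10.6 TPM with roseoflavin, so the pairs of libraries did not overlap in either line and lay in opposite orders. The difference between the lines in this response was -0.30 (SE 0.0904) and did not pass, with a limma adjusted p of 0.435. For this difference between lines 0.0261% of all genes passed, which is 5 genes, and 0 members. In limma 1907 of 19122 genes and 2 members, PSMD6 and PSME3, had an unadjusted p under 0.05. With quantile normalization 9 members and 1927 of 19122 genes did, and with mitochondrial transcripts removed 11 members and 2068 of 20467 genes. Each of those members had a lower change in PANC-1 than in AsPC-1, and 0 passed.

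The direction of small shifts after roseoflavin differed between the lines as a count. In AsPC-1 both libraries with roseoflavin lay above both without it for 16 of 46 members (34.8%), against 10.6% of all genes, and below for 3 (6.52%), against 21.6%. The 16 included 6 of the 11 non-ATPases of the cap, PSMB5, PSMB6, PSMC3 and PSMC4. In PANC-1 they lay above for 4 members (8.70%), against 22.9% of all genes, and below for 13 (28.3%), against 22.7%. The 4 above were PSMA1, PSMA2, PSMA3 and PSMD4. These counts are not tests, and they moved with scaling. With mitochondrial transcripts removed they were 29 above and 1 below in AsPC-1, against 14.4% and 18.5% of all genes, and 2 above and 26 below in PANC-1, against 16.5% and 29.6%. Mitochondrial transcripts were at their highest share of the AsPC-1 libraries with roseoflavin alone, at 44.1%. In PANC-1 their share was 23.7% and 22.8% with roseoflavin and 25.6% and 24.8% without it, and their part in the counts was not tested beyond this setting.

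The largest mean changes after roseoflavin were small in both lines. Among members averaging 5 TPM or more, the 3 lowest in AsPC-1 were the immunoproteasome genes PSMB10, PSMB9 and PSMB8, at -0.12, -0.09 and -0.06, and the 3 highest were PSMD9, PSMD6 and PSMB3, at 0.16, 0.14 and 0.14. PSMD9, a chaperone of the cap base, was at 9.42 and 8.33 TPM without and 10.1 and 10.0 TPM with roseoflavin. In PANC-1 the 3 lowest of these members were PSMD6, PSMA7 and PSMD9, at -0.16, -0.12 and -0.10, and the 3 highest were PSMA1, PSMA3 and PSMA2, at 0.10, 0.09 and 0.06. PSMA7, the most abundant alpha subunit, was at 261 and 272 TPM without and 242 and 246 TPM with roseoflavin, and the pairs did not overlap. PSMA1 was at 130.0 and 124 TPM without and 136 and 135 TPM with it. PSMA1, PSMA2 and PSMD9 each overlap another same-strand protein-coding locus in the annotation that has a higher TPM than the member, so their levels are uncertain, as are those of PSMA6 and of PSME2, which holds MIR7703. None of these 12 changes passed in limma, with adjusted p of 0.542 or more.

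**Figure D5:**
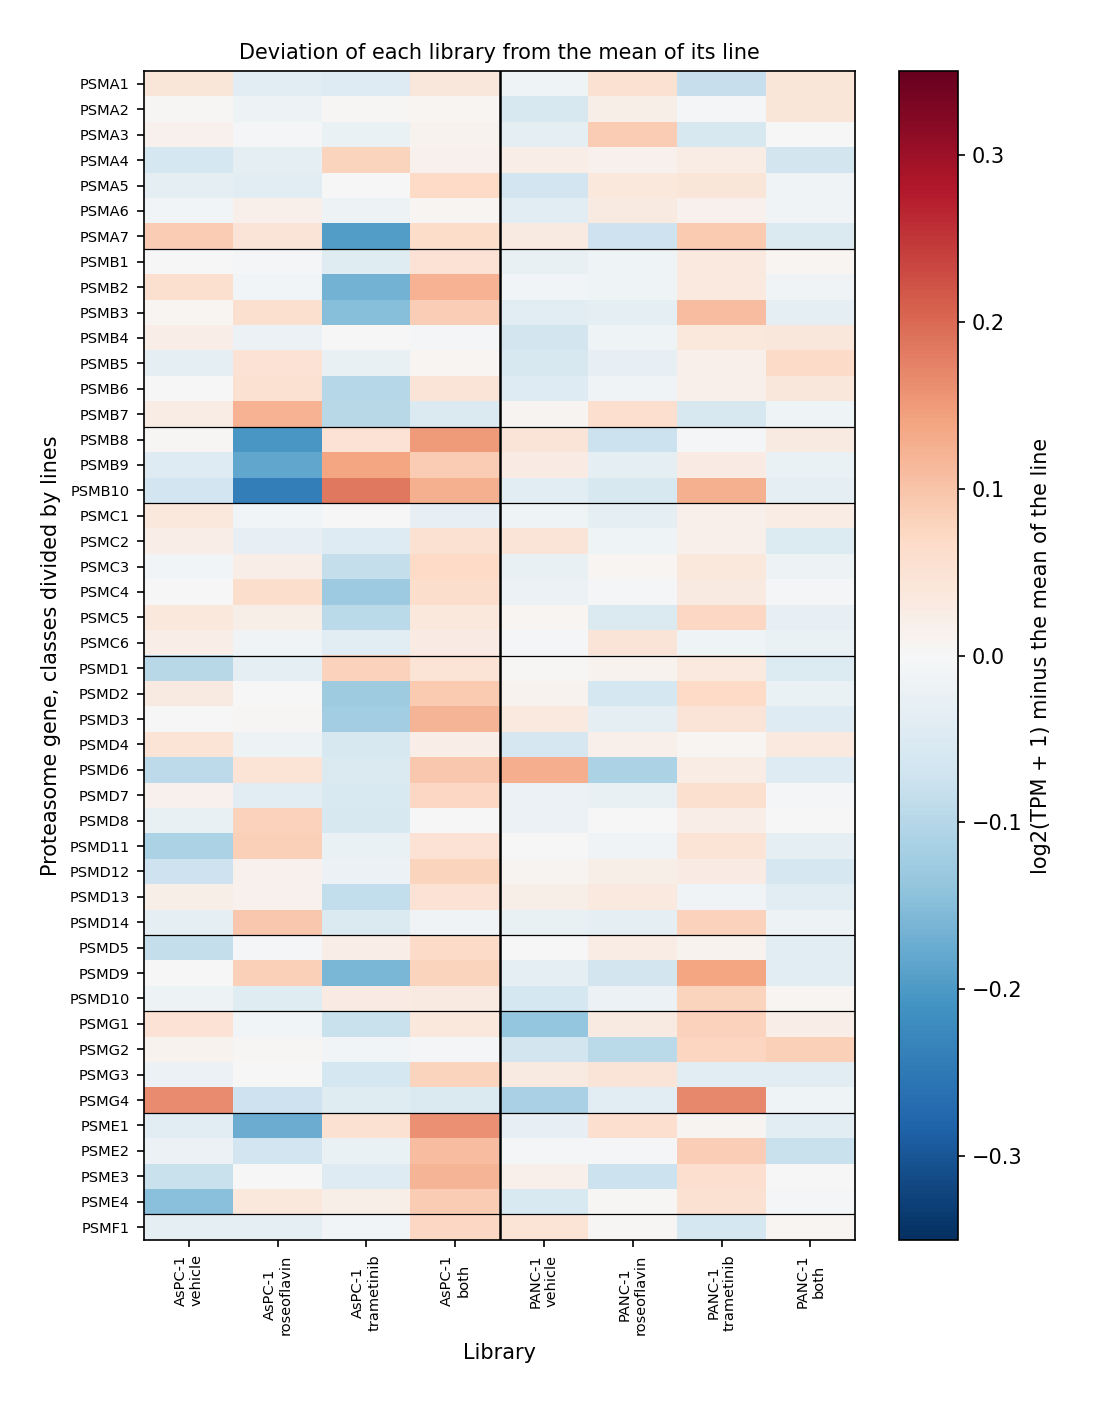
Log2(TPM + 1) of each of the 46 members in each library minus the mean of the 4 libraries of its line, with classes divided by horizontal lines. The 3 immunoproteasome genes are lowest in AsPC-1 with roseoflavin alone, and many core and cap genes are lowest in AsPC-1 with trametinib alone.

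Single libraries stood at the ends of many of these ranges. AsPC-1 with trametinib alone was the lowest of its line for 25 of 46 members (54.3%), against 21.6% of all genes, and AsPC-1 with both compounds was the highest for 24 (52.2%), against 23.4%. In PANC-1 the library with trametinib alone was the highest for 26 members (56.5%), against 26.5%. Without the AsPC-1 library with trametinib alone, the median change of the members after roseoflavin in AsPC-1 was 0.01 with 26 of 46 positive, and without that with both compounds it was 0.02 with 27 positive, compared with 0.04 and 35 positive over all libraries. Without the vehicle library it was 0.08 with 39 positive, and without that with roseoflavin alone 0.08 with 38 positive. With 1 library a group the treatment and the library cannot be told apart.

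Trametinib also gave 0 of 46 members past the threshold over both lines, where 0% of all genes passed in limma and 938 had an unadjusted p under 0.05. Of the members, 2 had an unadjusted p under 0.05. PSMB10 had a difference of 0.20 (SE 0.0587, 95% interval 0.06 to 0.34, limma adjusted p = 0.861) and PSMB7 of -0.11 (limma adjusted p = 0.861). All 46 intervals lay within 0.5. The immunoproteasome genes had the largest class median, 0.12, and that of the members was 0.01 against 0.02 over all genes.

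In AsPC-1 the immunoproteasome pairs separated with trametinib. All 3 immunoproteasome genes lay above in both libraries with trametinib, as did 24.0% of all genes tested. PSMB10 was at 66.6 and 63.8 TPM with and at 55.8 and 49.2 TPM without trametinib, PSMB8 at 41.6 and 44.6 against 40.2 and 34.7 TPM, and PSMB9 at 11.3 and 10.9 against 9.89 and 8.90 TPM. The share of PSMB10 in its pair was 36.6% and 34.9% with and 30.7% and 26.8% without trametinib. That of PSMB8 was 29.3% and 30.3% against 28.7% and 24.7%, and that of PSMB9 was 11.1% and 9.85% against 9.23% and 8.12%. In the per-line model 0 of 46 members passed, as did 0% of all genes, while 2115 genes and 4 members had an unadjusted p under 0.05. They were PSMB10 at 0.31 (SE 0.0590, limma adjusted p = 0.309), PSMB9 at 0.23 (limma adjusted p = 0.359), PSME1 at 0.21 and PSMB7 at -0.15. With 2 libraries against 2 no rearrangement of the libraries could give a p under 0.05 for a single value.

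Most interferon and peptide-loading genes lay on the same side in AsPC-1. Of the 7, 6 lay above in both libraries with trametinib, among them B2M, TAP1, TAP2 and TAPBP. IRF1, an interferon-induced transcription factor, was at 10.8 and 10.0 TPM with and 8.69 and 7.99 TPM without trametinib, a change of 0.29 (limma adjusted p = 0.405). None of the 7 passed. LUM, counted above among the markers of fibroblasts, was also above in AsPC-1 with trametinib, at 145 and 146 against 103 and 111 TPM, and its part was not tested. Over all members, 11 of 46 (23.9%) lay above with trametinib in AsPC-1, against 24% of all genes, and 2 (4.35%) below, against 13.3%, so the share above is that of the background. With quantile normalization these counts were 7 and 7 (15.2% each), against 20.9% and 16.6% of all genes.

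In PANC-1 the immunoproteasome genes did not all separate. The per-line model gave 0 members among 0.0105% of all genes, which is 2 genes, with 733 genes and 1 member at an unadjusted p under 0.05. That member was PSMG2, with a change of 0.16 (SE 0.0590, limma adjusted p = 1.00). PSMB10 was at 21.0 and 18.8 TPM with and 18.7 and 18.4 TPM without trametinib, PSMB9 at 11.8 and 11.3 against 11.8 and 11.2 TPM, and PSMB8 at 25.0 and 25.7 against 25.9 and 23.8 TPM. The difference between lines in the trametinib response gave 0 members and 0% of all genes, with 1392 genes and 2 members at an unadjusted p under 0.05. It was -0.22 for PSMB9 (SE 0.0802) and PSMB10 alike, with a limma adjusted p of 0.671, so a difference between the lines was not shown. Of the members 12 (26.1%) lay above with trametinib in PANC-1, against 16.1% of all genes, and 4 (8.70%) below, against 11.6%, and with quantile normalization 6 lay above, against 14.0% of all genes.

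The combination did not depart from the sum of its parts by an amount that passed. In the model with an interaction of the compounds, 0 of 46 members and 0% of all genes passed, 0 members and 536 genes had an unadjusted p under 0.05, and the smallest p was for PSMB8, at 0.23 (SE 0.109, 95% interval -0.04 to 0.50, limma adjusted p = 1.00). In AsPC-1 PSMB8 was lowest with roseoflavin alone, at 34.7 TPM, and highest with both compounds, at 44.6 TPM. The 95% interval lay within 0.5 for 44 of 46 members, and the farthest bound was 0.53, for PSMA7.

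None of the genes around the proteasome passed for either compound. After roseoflavin over both lines, the largest changes were in MAFF at 0.18 and NGLY1, the glycanase that processes NFE2L1, at -0.09 (limma adjusted p of 0.660 and 0.812). MAFG, a small MAF partner protein, was at 60.9 and 61.6 TPM with roseoflavin in PANC-1 and at 53.0 and 51.7 TPM without it, a change of 0.22 (SE 0.0526, limma adjusted p = 0.397). After trametinib UBQLN2 had the largest difference, 0.16 (limma adjusted p = 0.861). The letters TGACNNNGC, the core of the antioxidant response element that NFE2L1 and NFE2L2 bind with MAF proteins, were found on either strand in 13.3% of all start windows and in those of 15 of 40 members, 15 of 49 windows (30.6%). Of these 15 members, 0 lay above in both PANC-1 libraries with roseoflavin and 6 lay below, beside 4 and 13 of all 46 members and 22.9% and 22.7% of all genes. In AsPC-1, PSMB3, PSMC4, PSMD3, PSMD9, PSMD12 and PSME4 of the 15 lay above in both libraries with roseoflavin. Over all 46 members 16 lay above and 3 below there, against 10.6% and 21.6% of all genes. The 3 below, PSMB4, PSMC1 and PSMG4, were not among the 15.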

How the data were processed

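The RNA of 8 libraries was sequenced after TruSeq stranded mRNA preparation, per the labels' protocols. The authors deposited TPM values for each gene in a single table, whose columns are TPM of 1 line and treatment per the file headers. The submitters' processing notes name STAR 2.7.3a, HTSeq 2.0.2 and hg38. The annotation, strand setting and treatment of shared reads are not given in the sources used here. TPM holds no depth, so no counting error could be computed. A total of 985926 blank lines were dropped.

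Values were analysed as log2(TPM + 1), which understates the change of low genes, for genes that reached 1 TPM in 2 or more libraries. Models were fitted over all 19122 genes with limma 3.58.1 in R 4.3.3 (eBayes with trend), with Benjamini-Hochberg adjustment and a threshold of 0.05, and were tested on simulated data. Line, roseoflavin and trametinib were additive terms, or nested in or interacting with line or compound. The labels do not say that libraries came from separate cultures, and p-values measure only the spread between these 8 libraries.

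The members, classes, lists and models were chosen with earlier results of these data known. Genes named were the catalytic subunits, their inducible forms, PSMC4, PSMD4, PSMD14, the activators and PSMF1; members past the threshold, or where more than 10 passed the 5 largest in each direction; otherwise the member with the smallest p; the 3 largest mean changes after roseoflavin in each direction per line among members averaging 5 TPM or more; and list genes past the threshold or the 2 with the largest change, of which a few are printed and 1 is not reported here. The other markers, genomic neighbours and motif members are descriptions. The per-line trametinib models, the neighbours within 500 kb, the within-library shares and the motif searches were added after the data were seen. Gene positions follow GENCODE 29 (GRCh38), joined on the Ensembl identifier for 48 of 48 members. Alternatives were quantile normalization, removal of mitochondrial transcripts, no filter, an average of 10 TPM or more with and without an NM_ transcript, a pseudocount of 0.1, no trend, no term for the line, and leaving out each library.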

Additional observations from a re-analysis of the deposited data

How the results depend on the processing

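For roseoflavin, trametinib, their per-line changes, the differences between lines and the interaction, 0 members passed under every alternative that was run, leaving out each library included. Other genes did pass for these terms in some settings. Among the 7907 NM_ genes averaging 10 TPM or more, 72 passed for roseoflavin in AsPC-1 and 75 in PANC-1. Members called between the lines numbered 34 to 43 of those tested, and 40 to 42 when 1 library was left out. The 34 with quantile normalization stood beside 15140 of 19122 genes. With no filter 40 stood beside 16885 of 62649, and among those 7907 NM_ genes 40 stood beside 7236. With 1 library left out, 15618 to 15789 of 19122 genes passed. Counts of members whose libraries did not overlap moved most with scaling. After roseoflavin in AsPC-1, the 16 above became 28 with quantile normalization (18.8% of all genes) and 29 with mitochondrial transcripts removed (14.4%), and the 3 below became 0 (13.8%) and 1 (18.5%). In PANC-1 with mitochondrial transcripts removed, the 4 above became 2 (16.5%) and the 13 below became 26 (29.6%). After trametinib in AsPC-1, the 11 above became 7 (20.9%) and 6 (19.8%) under the same 2 scalings, and the 2 below became 7 (16.6%) and 5 (16.4%). They became 1 among genes averaging 10 TPM or more (12.6%) and among those with an NM_ transcript (11.7%). In PANC-1 the 12 above became 6 under both scalings (14.0% and 12.8%). The cause was not tested.

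Between the lines, the sign turned with quantile normalization and with mitochondrial transcripts removed for PSMB7 (-0.17 and -0.16), PSMB9 (-0.37 and -0.21), PSME2 (-0.39 and -0.32) and PSMF1 (-0.28 and -0.16), and with quantile normalization for PSMD14 (-0.0342). With no filter PSMB3 and PSMB9 did not pass (limma adjusted p of 0.117 and 0.119), nor did PSMB9 without a trend (0.0505). No paired analysis was possible because the labels give no replicate numbers. The matching of libraries by line and treatment is held by the terms of the additive model. With no term for the line 0 members passed for either compound. In that setting the line difference enters the residual spread, so it could hardly call any gene and adds no support. There 56 genes for roseoflavin and 46 for trametinib had an unadjusted p under 0.05 in limma. The limits are that each treatment is 1 library per line, that the per-line comparisons have 3 residual degrees of freedom, and that TPM gives no depth.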
